A study of Mus musculus with 18 samples.

Results

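Kupffer cell and macrophage marker genes were followed through livers with and without hepatocyte P450 reductase. The set holds 33 genes of the 18193 that the arrays name, each read from its probe set with the highest mean over the 18 arrays. The list was chosen with earlier results of these data known, so its counts beside all genes are description and no independent support. It has 3 classes: 7 markers of resident Kupffer cells, 7 of recruited or lipid-associated macrophages, and 19 shared by most myeloid cells. All 33 had a named probe set, and all 33 were bright enough to test, which asks for a value over the array median on 3 or more arrays. Gpnmb lay above that median in 17 arrays, Mmp12 in 6 and each of the other 31 in all 18.

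Kupffer cells are the resident macrophages of the liver. They sit in the sinusoids, are seeded before birth, maintain themselves and clear particles, old red cells and lipoproteins from portal blood. Monocytes that enter the liver under stress become macrophages that lack several resident markers at first, and in fatty liver they form lipid-associated cells with high lysosomal and lipid-handling genes. P450 reductase, the enzyme removed here, passes electrons to the microsomal P450s, so its loss stops most P450 reactions of the hepatocyte, among them steps of bile acid, drug and fatty acid metabolism.

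Control mice were Alb-Cre-/-/POR-lox+/+ and knockout mice Alb-Cre+/-/POR-lox+/+, so floxed reductase alleles were present in both and only the knockouts carried Cre. The albumin promoter drives Cre in hepatocytes, so macrophages are not a target of the deletion. All were males 12 weeks old that ate a synthetic diet for 8 weeks from week 4 and were fasted for 4 h. The fat was lard, canola oil, or a mixture of ARASCO, a fungal oil, and menhaden fish oil, here called fish/fungal. Every one of the 6 groups has 3 arrays, each with equal RNA from 3 livers and thus 9 mice in all; p-values measure the spread between such pools.

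Array medians ran from 5.23 to 5.29 in log2 units and arrays of a group correlated at 0.993 to 0.997. Hepatocyte markers lay between 11.3 and 14.7, near the top of the range. The deleted gene, Por, is not analysed here, and the knockout could not be checked on it. Values below are deposited log2 expression values, and a difference of 1 is a doubling. A log2 change is given ± its SE from limma, with the p adjusted over 12578 genes and a threshold of 0.05. Shares of all genes called refer to that adjusted threshold. Counts at an unadjusted p under 0.05 are description and, except for the interaction, come without the matching count over all genes.

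Macrophage markers were higher in knockout livers. Averaged over the 3 diets (9 knockout against 9 control pools), 16 of the 33 rose and 0 fell, where 3.82% of all genes tested rose and 0.755% fell. The difference was above 0 for 31 of the 33 (93.9%), against 48% of all genes, and the median over the 33 was 0.34 against 0.00 over all genes. The classes were uneven: 12 of the 19 general myeloid genes and 4 of the 7 recruited or lipid-associated genes rose, and 0 of the 7 resident genes passed the threshold (3 did at an unadjusted p under 0.05). Class medians were 0.38 for general, 0.26 for recruited or lipid-associated and 0.23 for resident genes, and the difference between classes was not tested. In RNA of whole liver, fewer or more cells of a type cannot be told apart from less or more RNA per cell.

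**Figure D1:**
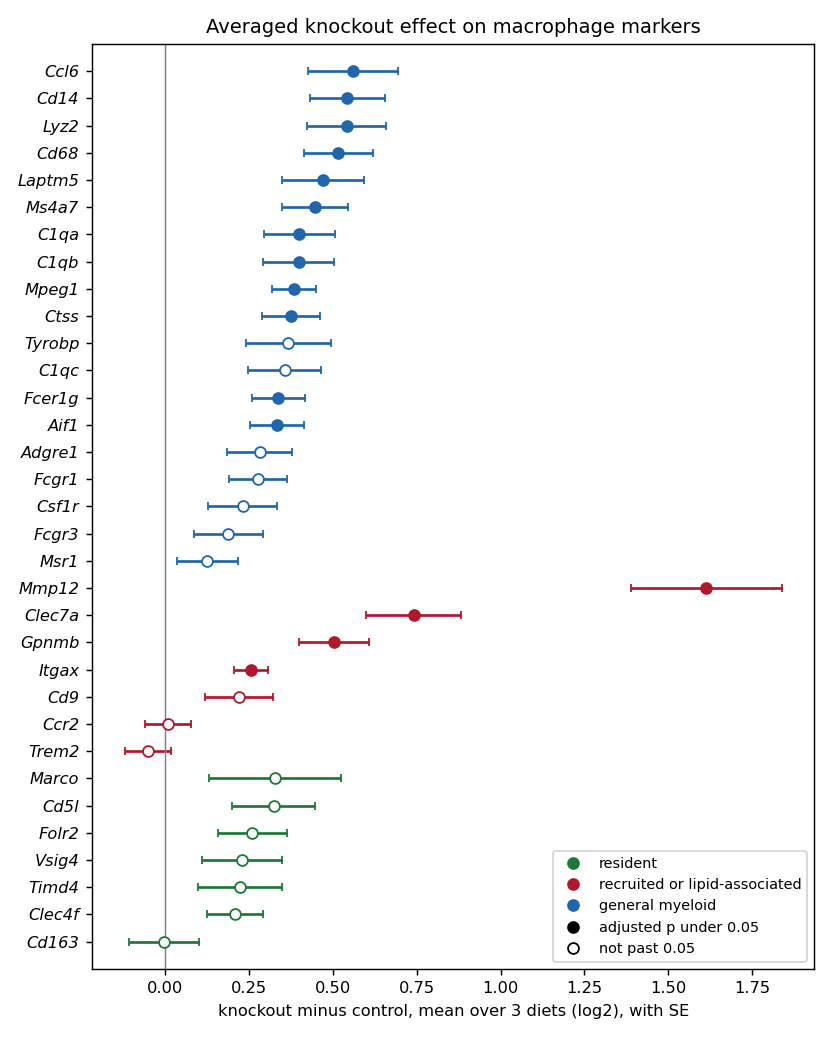
Knockout minus control for each of the 33 genes, averaged over 3 diets, in log2 units with the SE (9 pools per genotype); colours give the class and filled points an adjusted p under 0.05. Mmp12 stands far to the right at 1.61, most general myeloid genes lie between 0.2 and 0.6, and the 7 resident genes are open circles at 0.33 or below.

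Mmp12, macrophage elastase, a secreted protease that breaks down elastin, had the largest change of the set. On lard the control arrays read 3.83, 3.82 and 3.74 and the knockout arrays 6.55, 7.10 and 6.58. On canola oil the controls read 4.13, 4.41 and 3.89 and the knockouts 5.26, 5.77 and 4.27. On fish/fungal oil the controls read 4.14, 3.91 and 4.00 and the knockouts 4.60, 6.15 and 4.10. The lard groups stand far apart, while the lowest knockout array on each of the other diets falls inside its control range. All 9 control values and 3 of the knockout values lie below the array medians, so Mmp12 met the brightness filter through its 6 other knockout arrays alone. The averaged change was 1.61 ± 0.22 (adjusted p = 0.000456), and on lard 2.95 ± 0.39 (adjusted p = 0.00128). With every gene tested and no filter the adjusted p was 0.000293 on average and 0.000841 on lard. No fold is given, as the control level may lie at background. No single array carries it: the average stayed between 1.41 and 1.75 when each array was left out in turn.

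Clec7a encodes dectin-1, the phagocyte receptor for fungal beta-glucan. On lard the control arrays read 7.97, 8.19 and 8.15 and the knockout arrays 9.49, 9.90 and 9.13. On canola oil they read 8.13, 8.70 and 8.37 against 8.61, 9.17 and 8.57, and on fish/fungal oil 8.67, 8.86 and 9.30 against 9.88, 9.38 and 8.87. The groups are separate on lard and overlap on the other diets, and the fish/fungal control mean of 8.94 lies above the canola knockout mean of 8.79. The averaged change was 0.74 ± 0.14 (adjusted p = 0.00561), and the change on lard 1.41 ± 0.25 (adjusted p = 0.0109).

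Gpnmb, a transmembrane glycoprotein of lysosome-rich macrophages, was dim. Its lard controls read 5.56, 5.56 and 5.31 and its lard knockouts 6.36, 6.01 and 6.65. The canola controls read 5.49, 5.64 and 5.50 and the knockouts 5.98, 5.75 and 5.56. The fish/fungal controls read 5.27, 5.41 and 5.40 and the knockouts 5.60, 6.29 and 5.49. Its arrays do not overlap on lard or on fish/fungal oil. It rose by 0.51 ± 0.10 (adjusted p = 0.00856) on average and by 0.86 ± 0.18 on lard (adjusted p = 0.0298).

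Itgax, the CD11c integrin chain of dendritic cells and some macrophages, had a small and tight change. The control arrays read 5.64, 5.67 and 5.41 on lard, 5.64, 5.67 and 5.50 on canola oil, and 5.64, 5.69 and 5.76 on fish/fungal oil. The knockout arrays read 6.00, 5.95 and 5.99 on lard, 5.64, 5.86 and 5.74 on canola oil, and 5.93, 5.98 and 5.84 on fish/fungal oil. Only the canola groups overlap. The averaged change was 0.26 ± 0.05 (adjusted p = 0.00673).

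The other 3 genes of this class did not pass. Trem2, the lipid-sensing receptor that defines lipid-associated macrophages, ran from 6.46 to 6.83 in controls (median 6.63) and from 6.34 to 6.81 in knockouts (median 6.61). Ccr2, the receptor that brings monocytes out of the blood, ran from 5.80 to 6.19 (median 5.97) and from 5.82 to 6.22 (median 6.01). Neither genotype stands apart for these genes, with averaged differences of -0.05 ± 0.07 (adjusted p = 0.778) and 0.01 ± 0.07 (adjusted p = 0.961). Each has a second, dimmer probe set that reads differently. For Trem2 it gave 0.22 ± 0.09 (adjusted p = 0.18), and for Ccr2 0.43 ± 0.11 (adjusted p = 0.0365), so the Ccr2 result depends on the probe set. Cd9, a tetraspanin also found on platelets and many other cells, gave 0.22 ± 0.10 (adjusted p = 0.259).

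**Figure D2:**
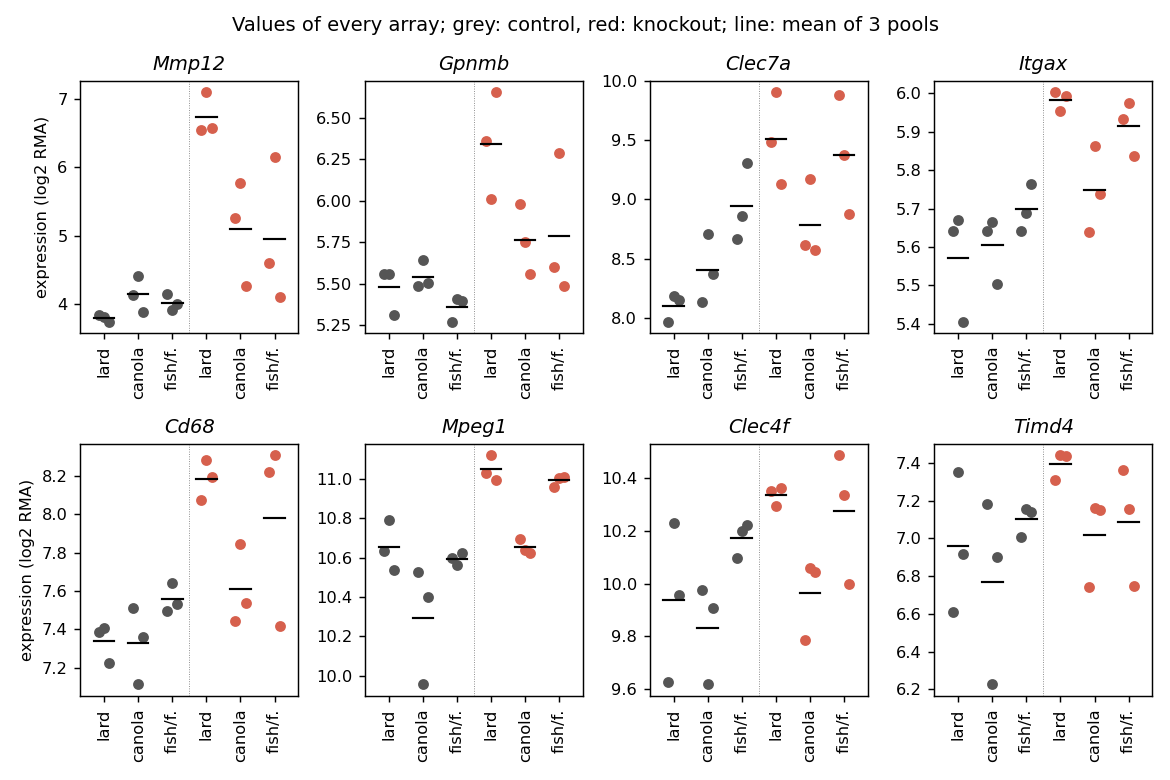
Log2 values of every array for 8 of the genes, grey for control and red for knockout, with a line at the mean of each group of 3 pools; vertical scales differ between panels. Mmp12 on lard reads 6.55 to 7.10 in knockouts against 3.74 to 3.83 in controls, and Mpeg1 is the gene whose groups are separate on every diet.

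Among general myeloid genes, Mpeg1 gave the most even picture. It encodes perforin-2, a pore-forming protein of phagocytes that attacks engulfed bacteria. The control arrays read 10.63, 10.79 and 10.54 on lard, 10.53, 9.96 and 10.40 on canola oil and 10.60, 10.56 and 10.62 on fish/fungal oil. The knockout arrays read 11.03, 11.12 and 11.00, then 10.70, 10.64 and 10.62, then 10.96, 11.01 and 11.01. It is the 1 gene of the 33 whose knockout arrays lie above all controls of the same diet on all 3 diets, a pattern 0.93% of all genes tested show. The change was 0.40 on lard, 0.36 on canola oil and 0.40 on fish/fungal oil, and 0.39 ± 0.06 on average (adjusted p = 0.00209).

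Cd68, a lysosomal and endosomal membrane protein used to stain macrophages, read 7.39, 7.41 and 7.23 in lard controls and 8.08, 8.28 and 8.19 in lard knockouts. On canola oil the controls read 7.51, 7.11 and 7.36 and the knockouts 7.44, 7.85 and 7.54. On fish/fungal oil the controls read 7.50, 7.64 and 7.53 and the knockouts 8.22, 8.31 and 7.42. The third fish/fungal knockout pool is below all controls of its diet, while the other two are far above. The averaged change was 0.52 ± 0.10 (adjusted p = 0.00693), and on lard it was 0.84 ± 0.18 (adjusted p = 0.0321).

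Cd14 is the co-receptor that hands bacterial lipopolysaccharide to TLR4. On lard it read 6.22, 6.19 and 6.20 in controls and 7.17, 7.42 and 7.19 in knockouts. On canola oil the values were 6.43, 6.03 and 5.81 against 6.47, 7.00 and 6.31, and on fish/fungal oil 6.43, 6.38 and 6.76 against 6.88, 6.75 and 6.16. Those groups overlap. The change was 1.06 ± 0.19 on lard (adjusted p = 0.0152), 0.50 ± 0.19 on canola oil, 0.07 ± 0.19 on fish/fungal oil and 0.54 ± 0.11 on average (adjusted p = 0.00865).

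Lyz2, the macrophage lysozyme that digests bacterial walls, read 9.25, 9.61 and 9.59 in lard controls and 10.43, 10.45 and 10.42 in lard knockouts. On canola oil it read 9.67, 9.36 and 9.34 against 9.67, 10.11 and 9.69, and on fish/fungal oil 10.03, 10.02 and 10.38 against 10.96, 10.51 and 9.87. Control livers on fish/fungal oil thus lie above control livers on lard. The change was 0.96 ± 0.20 on lard (adjusted p = 0.0332) and 0.54 ± 0.12 on average (adjusted p = 0.0127). Ccl6, a chemokine made by macrophages, ran from 7.46 to 8.62 in controls (median 7.73) and from 7.90 to 8.97 in knockouts (median 8.34). Its averaged change was 0.56 ± 0.13 (adjusted p = 0.0215).

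Other lysosomal genes of the class also rose. Ctss, cathepsin S, which trims the MHC class II invariant chain, ran from 10.34 to 11.01 in controls (median 10.61) and from 10.51 to 11.32 in knockouts (median 11.19). Laptm5, a lysosomal membrane protein of blood cells, ran from 7.84 to 8.60 (median 8.43) and from 8.13 to 9.22 (median 9.00). For both, the knockout median lies above every control array, and the ranges overlap. Ctss rose by 0.38 ± 0.09 (adjusted p = 0.018) and Laptm5 by 0.47 ± 0.12 (adjusted p = 0.0332). The Laptm5 value rests on a probe set open to cross-hybridization, and its other sets gave 0.21, 0.15, 0.13 and -0.07. Laptm5 also lost its call in 13 of the 18 fits that each left out 1 array.

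Fcer1g is the signalling chain shared by several Fc receptors. It ran from 7.93 to 8.33 in controls (median 8.13) and from 8.00 to 8.80 in knockouts (median 8.56), a rise of 0.34 ± 0.08 (adjusted p = 0.0183). Aif1, the actin-bundling protein IBA1, ran from 6.85 to 7.34 (median 7.14) and from 6.89 to 7.75 (median 7.57), a rise of 0.34 ± 0.08 (adjusted p = 0.0226). The only probe set of Aif1 is of a type open to cross-hybridization, and no other could check it. Ms4a7, a membrane protein of tissue macrophages, ran from 5.86 to 6.43 (median 6.23) and from 6.11 to 6.92 (median 6.82), a rise of 0.45 ± 0.10 (adjusted p = 0.0137). For all 3 genes the knockout median lies above every control array. On lard Fcer1g and Ms4a7 also passed, at 0.59 ± 0.14 (adjusted p = 0.0471) and 0.76 ± 0.17 (adjusted p = 0.0437). These lard calls are near the threshold and were lost in 15 and 11 of the 18 fits without 1 array. With quantile normalization repeated the limma adjusted p was 0.0714 and 0.0764.

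The 3 chains of complement C1q, which in liver are made mainly by macrophages, stood close to each other. C1qa ran from 8.67 to 9.54 in controls (median 9.38) and from 9.25 to 10.10 in knockouts (median 9.78). C1qb ran from 9.45 to 10.32 (median 9.99) and from 9.88 to 10.80 (median 10.39). Their averaged changes were 0.40 ± 0.11 (adjusted p = 0.0372) and 0.40 ± 0.11 (adjusted p = 0.0386), and C1qc gave 0.36 ± 0.11 (adjusted p = 0.0693). These are calls near the threshold. C1qa lost its call in 13 and C1qb in 11 of the 18 fits without 1 array, with adjusted p up to 0.088 and 0.0897.

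Adgre1 encodes F4/80, the surface protein most used to identify mouse macrophages. It ran from 8.02 to 8.73 in controls (median 8.40) and from 8.25 to 9.01 in knockouts (median 8.70). Its averaged difference of 0.28 ± 0.10 did not pass (adjusted p = 0.113), although on lard all 3 knockout arrays (8.70, 9.01 and 8.81) lie above the controls (8.06, 8.46 and 8.36). The remaining general genes that did not pass gave 0.37 ± 0.13 for Tyrobp, the DAP12 adaptor of TREM2 (adjusted p = 0.113), and 0.28 ± 0.09 for Fcgr1, the high-affinity IgG receptor (adjusted p = 0.0816). Csf1r, the receptor for the growth factor that keeps macrophages alive, gave 0.23 ± 0.10 (adjusted p = 0.237). Fcgr3, a low-affinity IgG receptor, gave 0.19 ± 0.10 (adjusted p = 0.354). Msr1, a scavenger receptor for modified lipoproteins, gave 0.13 ± 0.09 (adjusted p = 0.513).

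The resident class was positive without passing. Clec4f, a C-type lectin found on Kupffer cells and hardly elsewhere in the mouse, read 9.63, 10.23 and 9.96 in lard controls and 10.35, 10.29 and 10.36 in lard knockouts. On canola oil it read 9.98, 9.62 and 9.91 against 9.79, 10.06 and 10.04, and on fish/fungal oil 10.10, 10.20 and 10.22 against 10.49, 10.34 and 10.00. Lard separates the genotypes and the other diets do not. The averaged difference was 0.21 ± 0.08 (adjusted p = 0.188).

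Timd4, the phosphatidylserine receptor of long-lived Kupffer cells, ran from 6.23 to 7.35 in controls (median 7.01) and from 6.74 to 7.44 in knockouts (median 7.16). Vsig4, the complement receptor CRIg, ran from 10.01 to 10.94 (median 10.26) and from 10.13 to 11.30 (median 10.58). Both genotypes overlap widely. The averaged differences were 0.22 ± 0.12 (adjusted p = 0.371) and 0.23 ± 0.12 (adjusted p = 0.326).

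Among the other resident genes, Folr2, a folate receptor of tissue macrophages, gave 0.26 ± 0.10 (adjusted p = 0.173). Cd5l, a secreted scavenger-receptor protein, gave 0.32 ± 0.12 (adjusted p = 0.161). Marco, a scavenger receptor for bacteria, gave 0.33 ± 0.20 (adjusted p = 0.412). Cd163, the haemoglobin-haptoglobin receptor, stood at 0.00 ± 0.10 (adjusted p = 0.999). No fall of a resident gene was detected.

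**Figure D3:**
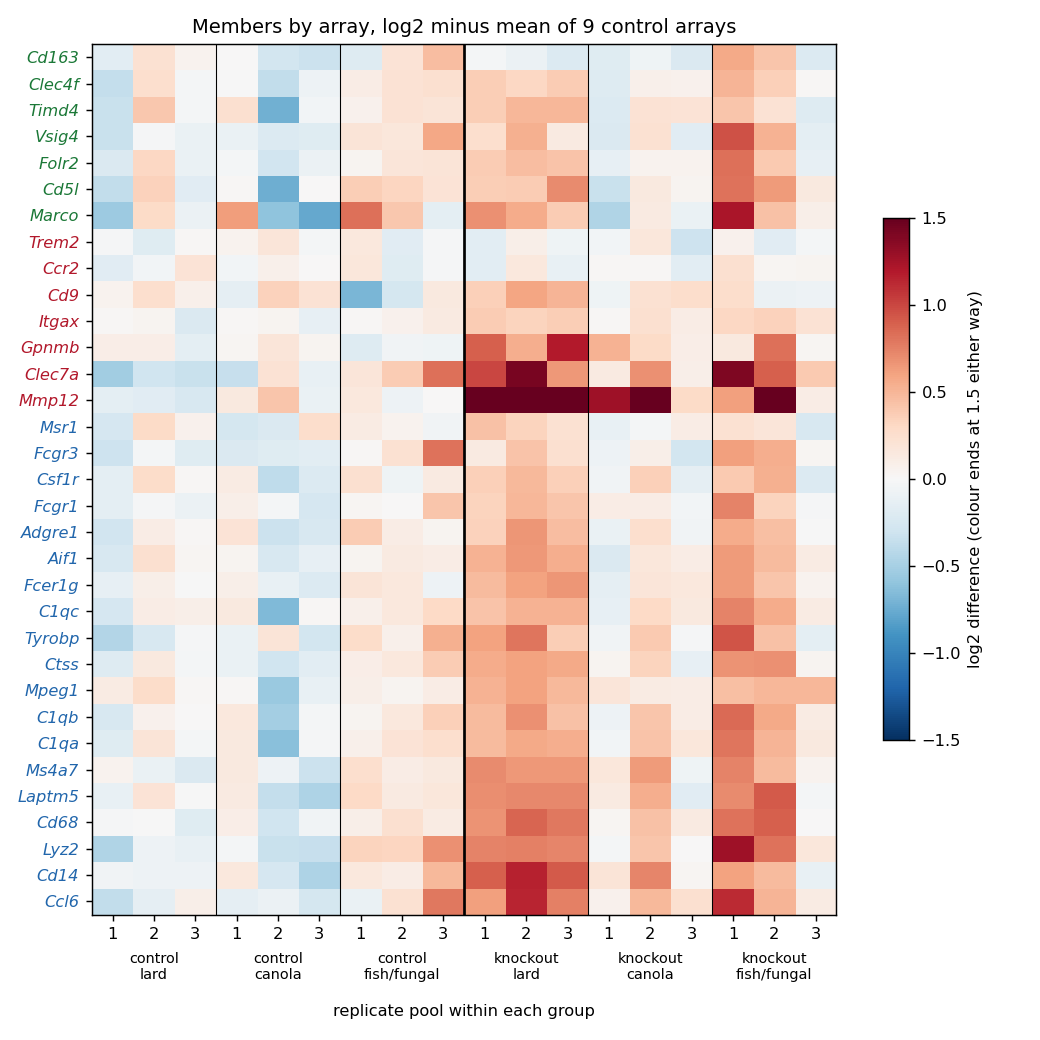
Each row is a gene and each column an array, coloured by its log2 value minus the mean of the 9 control arrays; the colour ends at 1.5 either way and gene names are coloured by class. The 3 lard knockout columns are warm for nearly every gene, and the third fish/fungal knockout pool and the first canola knockout pool are pale.

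The lard diet gave the largest knockout difference. On lard 9 of the 33 genes rose and 0 fell, where 0.898% of all genes rose and 0.0875% fell. These were Mmp12, Clec7a, Gpnmb, Itgax, Cd14, Cd68, Lyz2, Ms4a7 and Fcer1g. In 28 of the 33 all lard knockout arrays lay above all lard controls, against 9.14% of all genes; the exceptions were Cd163, Timd4, Trem2, Ccr2 and Msr1. The median lard difference over the 33 was 0.54. Among the 5 of the 7 resident genes that separated on lard, differences ran from 0.40 for Clec4f to 0.66 for Marco, and 0 of the 7 passed. The lard calls were not stable to the loss of a single lard array. Leaving out any of the 6 lard arrays left 1 to 3 genes of the set past the threshold, with Mmp12 among them each time. The fewest, 1, came without the first lard control pool.

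On canola oil and on fish/fungal oil 0 of the 33 passed, where 0.0636% and 0.294% of all genes did. At an unadjusted p under 0.05 there were 3 on canola oil (Mmp12, Cd14 and Mpeg1) and 6 on fish/fungal oil (Mpeg1, Mmp12, Gpnmb, Itgax, Cd68 and Aif1). The shares of all genes just given are for the adjusted threshold and are no measure for these unadjusted counts. The median differences were 0.19 and 0.24, with 30 and 31 of the 33 above 0. Knockout arrays lay above all controls for 2 genes on canola oil (Mpeg1 and Ccl6; 7.04% of all genes) and for 3 on fish/fungal oil (Mpeg1, Gpnmb and Itgax; 5.72%). The 3 within-diet differences share no arrays. They were above 0 on all 3 diets for 28 of the 33 genes (84.8%), against 23.9% of all genes. Single pools moved most genes of the set together, so these 28 genes are not separate results.

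Lard gave the highest of the 3 differences for 30 of the 33 genes (90.9%), against 34% of all genes, and canola oil for 0. The exceptions, highest on fish/fungal oil, were Cd163, Ccr2 and Mpeg1. The interaction test asked, gene by gene, whether the knockout difference depends on diet. The limma F test called 0 of the 33 and 0% of all genes. Unadjusted, 3 of the 33 genes (Mmp12, Cd14 and Clec7a) and 242 of all 12578 had a p under 0.05. No dependence of a single gene on diet passed the limma threshold.

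**Figure D4:**
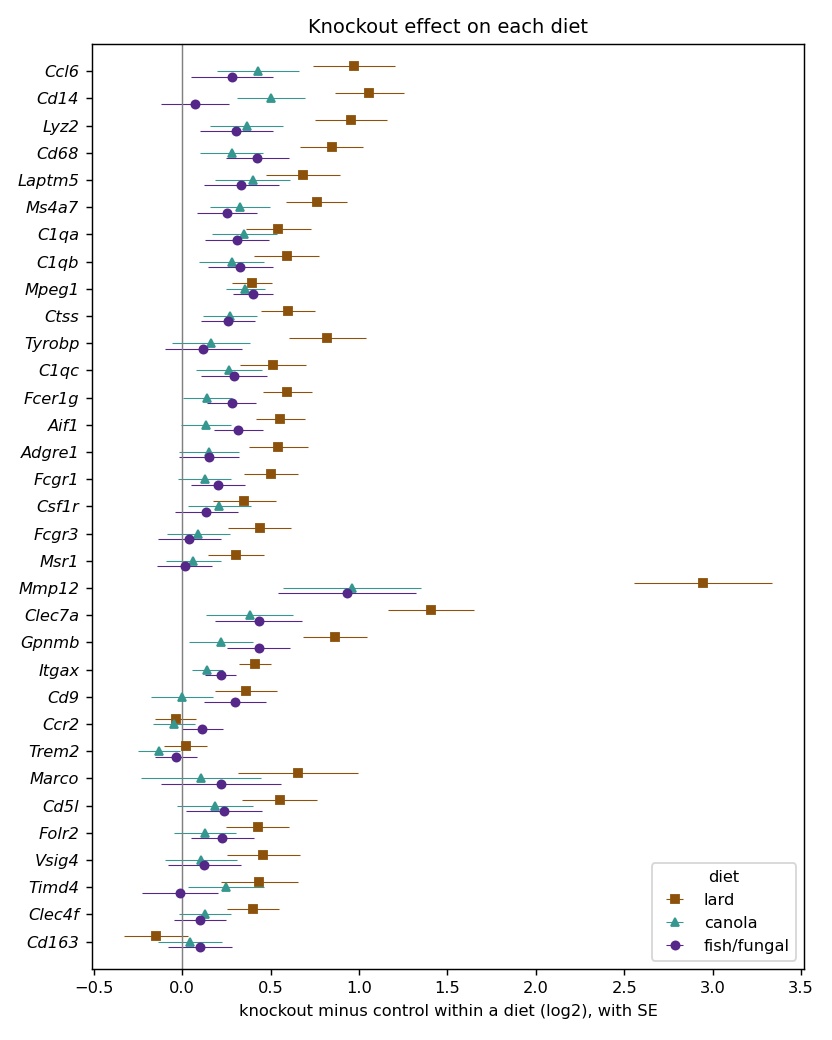
Knockout minus control within each diet in log2 units, with the SE of the fit (3 pools against 3); brown squares are lard, green triangles canola oil and purple circles fish/fungal oil. The lard square is furthest right in 30 of the 33 rows, most widely for Mmp12 at 2.95 against 0.96 and 0.93.

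The class levels show how the pools of a group spread. The level is the mean over a class of each log2 value minus that gene's mean in the 9 control arrays. For the resident class it was -0.05 ± 0.29 (SD, n = 3) in lard controls, -0.19 ± 0.28 in canola controls and 0.23 ± 0.03 in fish/fungal controls. In knockouts it was 0.35 ± 0.03, -0.05 ± 0.18 and 0.37 ± 0.41 in the same order. The resident levels in lard and in fish/fungal knockouts thus stand above the mean of every control group, the fish/fungal one with the widest spread. That in canola knockouts does not.

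The recruited or lipid-associated class stood at -0.08 ± 0.03, 0.05 ± 0.14 and 0.03 ± 0.10 in controls on lard, canola oil and fish/fungal oil, and at 0.78 ± 0.10, 0.27 ± 0.22 and 0.37 ± 0.24 in knockouts. The general class stood at -0.05 ± 0.13, -0.14 ± 0.16 and 0.19 ± 0.09 in controls, and at 0.58 ± 0.08, 0.12 ± 0.19 and 0.43 ± 0.35 in knockouts. In both classes lard knockouts were the highest group with a narrow spread, and fish/fungal knockouts had the widest. The order of knockout means was lard, fish/fungal, canola in these 2 classes, and the fish/fungal and canola means differ by less than the SD of the fish/fungal pools. Mmp12, with an averaged change of 1.61, weighs heavily in the mean of the 7 recruited or lipid-associated genes. The median knockout differences of that class were 0.41 on lard, 0.14 on canola oil and 0.30 on fish/fungal oil. Those of the resident class were 0.44, 0.13 and 0.13.

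Single pools moved most genes of the set together. Of the fish/fungal knockout pools, the third had the lowest value for 29 of the 33 genes (32.6% of all genes) and the first the highest for 25 (30.1%). Of the canola knockout pools, the second was highest for 28 (29.7%). Among lard controls the first was lowest for 25 (33.1%) and the second highest for 26 (36.1%). In canola controls the second pool was highest for all 7 recruited or lipid-associated genes (35.0% of all genes). It was lowest for 5 of the 7 resident genes (37.7%), and the first pool was highest for all 7 of these (38.6%). Without the third fish/fungal knockout pool 23 of the 33 genes rose on average, with Vsig4, Folr2, Adgre1, Csf1r, C1qc, Tyrobp and Fcgr1 added, and the count over all genes went from 575 to 698 (5.55%). Without the second canola knockout pool 11 did, with C1qa, C1qb, Aif1, Laptm5 and Ccl6 lost, and the count over all genes went to 371 (2.95%).

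**Figure D5:**
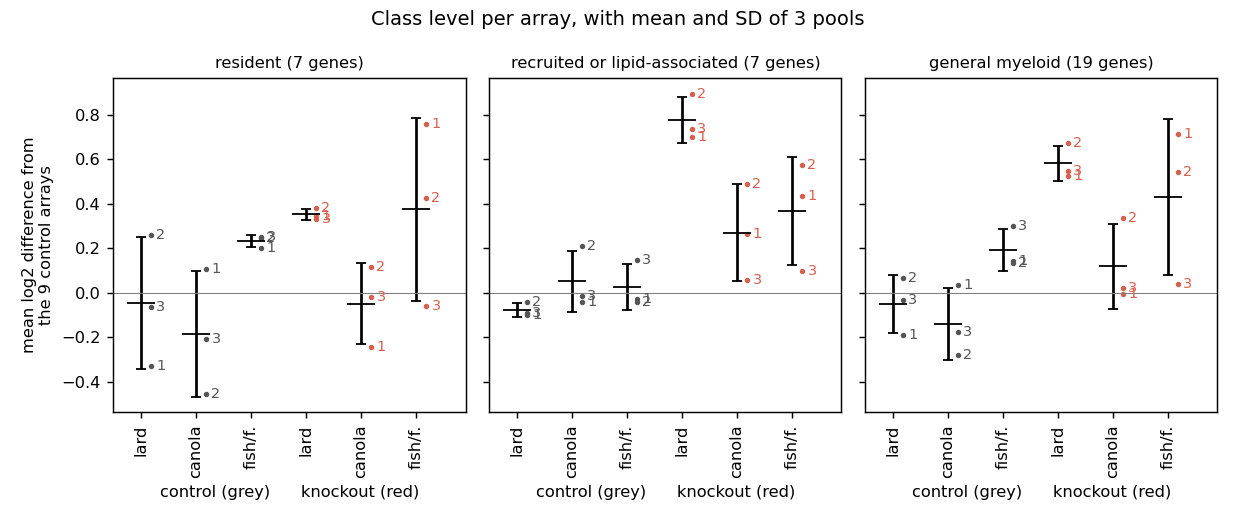
Class level of each array (mean log2 difference from the 9 control arrays), with the mean and SD of 3 pools; grey is control, red is knockout and the digits name the pool. Lard knockouts cluster at 0.35, 0.78 and 0.58 in the 3 panels, and fish/fungal knockouts spread over the widest range in the resident panel. The recruited or lipid-associated level includes Mmp12, the largest change of the set, which weighs heavily in it.

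Diet alone passed for 0 of the 33 genes in each comparison. These comparisons use the same arrays as the knockout differences, so the values stand side by side and are no separate evidence. Their counts at an unadjusted p under 0.05 come without the matching count over all genes, and the shares called are no measure for them. In controls, fish/fungal oil against lard gave a median of 0.22 with 29 of the 33 above 0, and 10 separated upward (6.2% of all genes); 0.716% of all genes were called. The highest were Clec7a at 0.84 ± 0.25 (adjusted p = 0.188) and Lyz2 at 0.66 ± 0.20 (adjusted p = 0.246), and 6 of the 33 had an unadjusted p under 0.05. In knockouts the median was -0.11 with 7 above 0, 3 separated downward (Mmp12, Cd9 and Cd14; 6.14% of all genes) and 0.461% of all genes were called. Mmp12 stood at -1.79 ± 0.39 (adjusted p = 0.0512), just short of the threshold, and 4 of the 33 had an unadjusted p under 0.05. The opposite signs of the medians restate the larger knockout difference on lard.

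Against canola oil, fish/fungal oil gave medians of 0.31 in controls (28 of 33 above 0) and 0.31 in knockouts (31 of 33 above 0). There 10 and 12 of the 33 had an unadjusted p under 0.05. At the adjusted threshold, which is no measure for those counts, 0.262% and 0.159% of all genes were called. Lyz2 had the smallest p of the set in both, at 0.68 ± 0.20 (adjusted p = 0.307) and 0.62 ± 0.20 (adjusted p = 0.528). Canola oil against lard over both genotypes gave a median of -0.26, with 2 of the 33 above 0 and 14 at an unadjusted p under 0.05. At the adjusted threshold, again no measure for that unadjusted count, 0% of all genes were called. Mpeg1 had the smallest p of the set, at -0.38 ± 0.08 (adjusted p = 0.2). The general myeloid and resident classes were below 0 in this comparison for all 19 and all 7 genes, without a gene that passed.

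Promoters of the genes that rose were read for 3 motifs of myeloid and general factors. RefSeq's promoter table for build GRCm38.p6 gave windows from 250 bases before to 50 after the start for 14 of the 16. The motifs, searched on both strands, were the PU-box core GAGGAA, bound by the macrophage factor PU.1 and other ETS proteins, the AP-1 site TGANTCA and the E-box CACGTG. The sequences below are shown because they cover the largest change (Mmp12, 1 of its 2 windows), the lysosomal marker Cd68, the protease Ctss and the most even gene, Mpeg1. Capitals mark motif matches on either strand; a PU-box on the other strand reads TTCCTC.
Mmp12, chr9:7347124-7347423, plus strand: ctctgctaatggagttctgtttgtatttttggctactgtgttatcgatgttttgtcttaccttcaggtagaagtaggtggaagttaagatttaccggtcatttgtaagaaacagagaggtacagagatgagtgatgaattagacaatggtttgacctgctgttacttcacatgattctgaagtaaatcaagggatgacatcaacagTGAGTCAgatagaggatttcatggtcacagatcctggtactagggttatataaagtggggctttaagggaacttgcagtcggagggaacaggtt
Cd68, chr11:69666121-69666420, minus strand: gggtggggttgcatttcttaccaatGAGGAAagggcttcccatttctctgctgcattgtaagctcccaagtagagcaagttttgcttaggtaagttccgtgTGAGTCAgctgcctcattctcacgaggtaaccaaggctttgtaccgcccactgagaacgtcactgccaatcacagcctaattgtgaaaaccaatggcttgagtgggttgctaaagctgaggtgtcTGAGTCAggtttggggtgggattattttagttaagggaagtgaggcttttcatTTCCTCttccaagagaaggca
Ctss, chr3:95526536-95526835, plus strand: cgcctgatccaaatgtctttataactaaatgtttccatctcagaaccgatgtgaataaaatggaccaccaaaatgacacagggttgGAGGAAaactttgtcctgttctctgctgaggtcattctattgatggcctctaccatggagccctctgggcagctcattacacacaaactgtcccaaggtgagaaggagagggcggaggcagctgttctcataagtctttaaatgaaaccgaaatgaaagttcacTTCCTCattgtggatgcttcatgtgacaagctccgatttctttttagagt
Mpeg1, chr19:12460520-12460819, plus strand: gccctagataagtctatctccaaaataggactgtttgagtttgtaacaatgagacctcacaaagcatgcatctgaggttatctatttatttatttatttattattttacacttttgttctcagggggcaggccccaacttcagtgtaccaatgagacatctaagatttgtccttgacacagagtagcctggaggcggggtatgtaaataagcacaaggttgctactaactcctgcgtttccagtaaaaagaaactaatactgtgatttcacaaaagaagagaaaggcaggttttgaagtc

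The Mmp12 window holds an AP-1 match that begins 44 bases before the start, and its other window holds a PU-box. Cd68 holds 2 PU-boxes and 2 AP-1 matches, Ctss holds 2 PU-boxes, and Mpeg1 holds none of the 3 motifs in this window. A PU-box was found for 8 of the 14 genes that rose, for 15 of the 27 of all 33 that had a window, and for 31.2% of 27025 symbols in the table. AP-1 was found for 5 of the 14, 7 of the 27 and 8.97% of symbols, and the E-box for 0 of the 14, 0 of the 27 and 8.09%. A match is a run of letters and not a bound site.

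Other genes of the same cells were counted from further lists in the averaged effect, where 3.82% of all genes tested rose and 0.755% fell. Lysosomal and lipid-handling genes linked to lipid-associated macrophages rose most often, 9 of 16 tested with 0 falling, at a median of 0.26. Lpl, lipoprotein lipase, rose by 1.31 ± 0.09 (adjusted p = 9.06e-08) and Ctsd, cathepsin D, by 0.28 ± 0.05 (adjusted p = 0.00574). Unlike the 33 markers, Lpl passed on all 3 diets and stood at 1.90 on fish/fungal oil, 1.06 on lard and 0.97 on canola oil, a difference between diets that the interaction test did not call. Hepatocytes and other liver cells also express several genes of this list, and their part was not tested.

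Of phagocyte signalling, integrin and oxidase genes 6 of 25 rose, led by Cd48, a leukocyte adhesion protein (0.45 ± 0.08, adjusted p = 0.00543), and Itgb2, the beta chain of leukocyte integrins (0.55 ± 0.11, adjusted p = 0.00782). Of growth factors, chemokines and their receptors 3 of 20 rose. These were led by Icam1, the adhesion ligand of those integrins (0.73 ± 0.11, adjusted p = 0.000858), and Tgfbr2, a TGF-beta receptor (0.64 ± 0.11, adjusted p = 0.00263), whose second probe set gave 0.33 (adjusted p = 0.0804). Ccl2, the ligand of Ccr2, passed on lard and in no other knockout comparison (0.53 ± 0.12, adjusted p = 0.048); it was named after its value was seen. Of further Kupffer cell genes 2 of 12 rose, Hpgd (0.38 ± 0.10, adjusted p = 0.0422), which inactivates prostaglandins, and Slc11a1 (0.37 ± 0.10, adjusted p = 0.0477), a metal transporter of the phagosome. Hpgd fell short at 0.28 (adjusted p = 0.468) with the mean of its probe sets and at 0.18 (adjusted p = 0.8) without those open to cross-hybridization, and the calls of Hpgd and Slc11a1 were lost in 11 and 13 of the 18 fits without 1 array. Of macrophage transcription factors 2 of 12 passed, Zeb2 (0.41 ± 0.11, adjusted p = 0.0388) and Maf (0.42 ± 0.12, adjusted p = 0.0481). Both rest on 1 probe set: the mean of all probe sets gave 0.14 for Zeb2 (adjusted p = 0.11) and 0.12 for Maf (adjusted p = 0.242), and 11 and 15 of the 18 fits without 1 array lost the call. In these 4 lists 0 genes fell. Over all genes tested 3.82% rose and 0.755% fell on average.

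Markers of other cell types were counted beside the macrophage genes, again with 3.82% of all genes tested rising and 0.755% falling on average. In lists this short, 1 call says little about the list. Of 11 stellate cell and fibroblast genes 1 rose, Timp1, a metalloprotease inhibitor (0.36 ± 0.06, adjusted p = 0.00311). Its control mean of 4.90 is below the array medians. It met the brightness filter, which asks for 3 arrays, with 4 of 18 arrays above the median, so its control level may lie at background. Unadjusted, 6 of the 11 genes had a p under 0.05, a count given without its match over all genes. Of the 11 genes 9 were above 0, with a median of 0.32. Their mean level, taken as for the macrophage classes, was 0.09 ± 0.01 (SD, n = 3), -0.10 ± 0.03 and 0.02 ± 0.17 in controls on lard, canola oil and fish/fungal oil, and 0.38 ± 0.23, 0.16 ± 0.22 and 0.14 ± 0.27 in knockouts. It was thus also highest in lard knockouts, and its part in the macrophage result was not tested. The lone tested monocyte gene, Plac8, did not pass (0.14 ± 0.10, adjusted p = 0.514), while the level of the 3 monocyte genes with a probe set, of which F13a1 and Chil3 were dim, was -0.03 ± 0.11, -0.12 ± 0.10 and 0.15 ± 0.20 in controls and 0.46 ± 0.07, 0.02 ± 0.15 and 0.32 ± 0.32 in knockouts. Neutrophil genes (0 of 5), T and NK cell genes (0 of 4), dendritic cell genes (0 of 4), cholangiocyte genes (0 of 3), sinusoidal endothelial genes (0 of 12) and hepatocyte genes (0 of 10) had no gene past the threshold in limma; unadjusted, 2 endothelial and 1 dendritic cell gene had a p under 0.05. The smallest p of each belonged to Mpo (-0.14 ± 0.07, adjusted p = 0.303), Nkg7 (0.05 ± 0.06, adjusted p = 0.708), Siglech (-0.12 ± 0.05, adjusted p = 0.259), Epcam (0.10 ± 0.06, adjusted p = 0.447), Stab2 (0.28 ± 0.10, adjusted p = 0.124) and Ttr (-0.05 ± 0.02, adjusted p = 0.283). Of 5 B and plasma cell genes 1 fell, Ighm, the IgM heavy chain (-0.58 ± 0.12, adjusted p = 0.0112), but the mean of its probe sets gave -0.094 (adjusted p = 0.231) and its second probe set -0.057 (adjusted p = 0.728). The general myeloid genes are also carried by neutrophils or dendritic cells to differing degrees, and the part of those cells was not tested. The levels of those lists were 0.11 ± 0.37 and 0.02 ± 0.09 in lard controls and -0.01 ± 0.12 and -0.05 ± 0.04 in lard knockouts. They include 4 dim neutrophil genes and 2 dim dendritic cell genes.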

How the data were processed

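Liver RNA pools were measured on 18 Affymetrix Mouse Genome 430 2.0 arrays. Per the submitters' processing notes the deposited values come from RMA, and they are log2 expression as read from their range of 2.41 to 14.9; the authors' software version is not given in the sources used here. RMA tends to compress small signals, so changes of dim genes may be understated, which was not tested here. Of 45101 probe sets 34945 had 1 gene symbol, and 9160 had no entry in the annotation used. The brightest probe set stood for a gene.

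limma 3.58.1 in R 4.3.3 fitted 6 group means to all 18 arrays with an intensity trend. P-values are two-sided, Benjamini-Hochberg adjusted over 12578 genes. Named by rule: genes of the set past the threshold, Clec4f, Timd4, Vsig4, Adgre1, Trem2 and Ccr2, and up to 2 genes of each other list. The set, lists and tests were chosen with earlier results of these data known. Alternatives were other scaling, filters, probe set rules, no trend, array weights, fits of only the groups compared, blocking on replicate number, and dropping every array in turn. Replicate numbers did not pair pools: of 45 same-numbered pairs 17 correlated above 0.1. In simulated data the averaged test found 88.1% of genes planted at 0.5 and called 15 of 12378 unchanged genes. The noise was drawn separately for each gene. Pools that move many genes together, as seen for this set, were therefore not covered. Genes of the lists without a usable probe set are not analysed here.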

Additional observations from a re-analysis of the deposited data

Results flagged for a closer look

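A second probe set of Ccr2, the monocyte chemokine receptor, was not used because it is dimmer than the one that stood for the gene, and it read higher in knockouts. Its averaged difference was 0.428 ± 0.11 in log2 units (SE; limma adjusted p = 0.0365), and it lay above the array median in 10 of the 18 arrays. Its differences were 0.65 on lard, 0.20 on canola oil and 0.44 on fish/fungal oil. The brightest probe set gave 0.01 and the remaining 2, which lay below the array median in all arrays, gave 0.19 and 0.18. Why the probe sets differ was not tested.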

How the results depend on the processing

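Counts of the set in the averaged knockout effect ran from 11 to 17 under the 10 planned or added alternatives, against 16. Repeating quantile normalization left 14 (without C1qa and C1qb) and turned the split of all called genes from 480 higher and 95 lower (83.5% higher) to 401 and 163 (71.1%). A filter at the 75th percentile left 11, since 5 genes were then not tested. The second-brightest probe set, chosen after seeing the data, left 12 (without Gpnmb, C1qb, Laptm5, Ms4a7 and Ccl6, with Ccr2 added). A gene with 1 probe set kept it in this fit, which holds for all 11 reported calls that stayed. That they stayed is therefore no check of them. The 5 lost are the called genes that have a second probe set, and those of Gpnmb and Ms4a7 were too dim to test. The replicate block left 14, without C1qa and C1qb. Laptm5 turned to -0.073 without probe sets open to cross-hybridization. A gene with no other probe set, such as Aif1, kept its own in that fit and was not checked by it. Trem2 turned to 0.088 with the mean of probe sets and 0.22 with the second probe set, and Ccr2 to -0.0062 on centred arrays. On lard, the 75th percentile filter left 70 genes and 4 of the set, and fitting only the groups compared gave 14 of the set. The lard call of Itgax was lost on centred arrays (limma adjusted p = 0.053) and with only the groups compared (0.0999). Those of Fcer1g and Ms4a7 were lost in 4 and 2 alternatives, among them quantile normalization and centred arrays. For canola knockouts array weights gave 90 genes and only the groups compared 1; for fish/fungal knockouts the mean of probe sets gave 24 and only the groups compared 22. Fish/fungal oil against lard gave 1 of the set in controls with only the groups compared; in knockouts it gave 30 genes with array weights and 12 with only the groups compared, and 1 of the set without a filter or with the replicate block. Against canola oil it gave 50 genes in controls when centred and 50 with array weights, and in knockouts 10 with only the groups compared and 13 with the replicate block. Canola against lard gave 1 gene with array weights. The causes were not tested.

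Leaving out each array gave 371 to 698 genes and 11 to 23 of the set in the averaged effect, 30 to 161 and 1 to 13 on lard, 3 to 28 genes on canola oil, and 13 to 43 genes and 0 to 1 of the set on fish/fungal oil. Fish/fungal oil against lard gave 41 to 93 genes in controls and 12 to 116, with 0 to 2 of the set, in knockouts; against canola oil it gave 19 to 48 and 5 to 30. Canola against lard gave 0 to 4 and the interaction 0 to 1. Cd163 moved between -0.059 and 0.078 and Ccr2 between -0.023 and 0.045. Class differences ran from 0.16 to 0.30 resident, 0.43 to 0.52 recruited and 0.33 to 0.44 general. The recruited range includes Mmp12, which weighs heavily in it. Mmp12 lies below the array median in all 9 controls, which limits what its control level can show.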
